A study of Mus musculus with 6 samples.

Results

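Integrins and laminins were taken as all loci of the count table whose name, split at commas, held a mouse symbol of an integrin alpha subunit (Itga), an integrin beta subunit (Itgb) or a laminin alpha, beta or gamma chain (Lama, Lamb, Lamc). This gave 37 of 51499 loci: 18 alpha subunits, 8 beta subunits and 11 laminin chains. The rule used names only and no measured value, although it was set with earlier results of these data known. Transcripts were measured by stranded poly(A) RNA sequencing in SV40-immortalized mouse embryonic fibroblasts (MEFs) from animals with loxP-flanked Yme1l alleles. Yme1l encodes a protease of the mitochondrial inner membrane, and the comparison asks how its loss changes transcript levels. WT cells carried Yme1l fl/fl, whereas Yme1l-/- cells had lost the gene through Cre recombinase, and both were grown from single clones after Cre transduction. Each genotype was represented by 3 independent cultures, so differences between clones that are unrelated to Yme1l cannot be told apart from the genotype.

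Integrins are receptors in the plasma membrane that join an alpha and a beta subunit and link the extracellular matrix to the actin cytoskeleton. The alpha subunit largely sets the ligand, which may be collagen, laminin, or proteins with an Arg-Gly-Asp (RGD) sequence such as fibronectin. Laminins are secreted trimers of an alpha, a beta and a gamma chain that form the sheet of basement membranes, and several integrins bind to them. Fibroblasts use these molecules to adhere, to spread and to sense the matrix.

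The transcripts of most abundant integrins and laminins were lower in Yme1l-/- than in WT MEFs, whereas several low members were higher. Of the 37 loci, 25 passed the filter on low counts and were tested, 8 were called higher in Yme1l-/- cells and 15 lower (adjusted p under 0.05, edgeR quasi-likelihood test), and 2 were not called. Over all 13867 loci tested, 67.7% were called, 33.6% higher and 34.1% lower, and the corresponding shares of the tested members were 92%, 32% and 60%. A called difference of at least 2-fold was found for 4 members higher and 9 lower, against a background of 9.1% and 8.63% of all loci. The median log2 fold change (Yme1l-/- over WT) of the 25 members was -0.61, beside -0.00 over all loci. None of the 10 members with a mean of at least 100 CPM over all 6 libraries was called higher and 9 were called lower, where CPM are counts divided by the library total after TMM scaling, times 1e6. Of the 2556 loci above the same level, 30.4% were called higher and 45.9% lower. Together the 37 loci took 0.362% to 0.368% of the counted fragments in WT libraries and 0.242% to 0.25% in Yme1l-/- libraries.

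For depth, WT libraries held 33180867 to 34012520 counted fragments and Yme1l-/- libraries 34624075 to 49351107. Yme1l itself (Yme1l1 in the files) fell from 188.7 ± 5.16 CPM to 39.1 ± 1.34 CPM (SD, n = 3 per genotype here and below). The fibroblast label was checked on 11 markers, whose summed level was 10963 to 11520 CPM in WT and 6724 to 7207 CPM in Yme1l-/- libraries, with 7 called lower and 1 higher. Of these markers, Thy1 and Lum were at or near 0 in both genotypes. Epithelial markers summed to 142.5 to 159.6 CPM in WT and to 3.23 to 3.80 CPM in Yme1l-/- libraries. In such bulk samples, fewer cells of a type and less RNA per cell cannot be told apart. Libraries of one genotype differed by more than sampling noise, and p-values measure the spread between cultures of these clones.

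Because transcript levels differed at so many members, the sequence just upstream of the RefSeq transcription start is shown for some that the results turn on. A RefSeq promoter entry (build GRCm38.p6) matched 23 of the 37 members with 26 windows of 250 bases before the start. The 4 printed below belong to the tested integrins with the largest rise (Itgb7) and fall (Itgb8) and to 2 major laminin chains that fell (Lama5 and Lamb1). Each is written 5′ to 3′ on the strand of the gene, and capitals mark a GC box (GGGCGG on either strand) or a CCAAT box (CCAAT on either strand).
Itgb7: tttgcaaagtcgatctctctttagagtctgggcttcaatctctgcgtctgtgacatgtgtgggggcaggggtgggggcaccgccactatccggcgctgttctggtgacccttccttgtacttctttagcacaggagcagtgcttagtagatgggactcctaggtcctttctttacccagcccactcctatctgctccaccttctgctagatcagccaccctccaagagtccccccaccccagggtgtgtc
Itgb8: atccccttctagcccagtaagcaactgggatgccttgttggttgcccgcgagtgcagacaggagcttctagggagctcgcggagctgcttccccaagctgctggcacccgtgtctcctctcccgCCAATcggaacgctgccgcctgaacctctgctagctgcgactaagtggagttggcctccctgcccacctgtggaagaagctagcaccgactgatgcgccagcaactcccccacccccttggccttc
Lama5: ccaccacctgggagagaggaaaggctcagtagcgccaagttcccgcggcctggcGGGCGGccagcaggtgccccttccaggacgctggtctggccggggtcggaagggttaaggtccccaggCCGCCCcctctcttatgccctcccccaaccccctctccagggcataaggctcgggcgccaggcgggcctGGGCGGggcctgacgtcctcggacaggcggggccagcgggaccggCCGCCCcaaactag
Lamb1: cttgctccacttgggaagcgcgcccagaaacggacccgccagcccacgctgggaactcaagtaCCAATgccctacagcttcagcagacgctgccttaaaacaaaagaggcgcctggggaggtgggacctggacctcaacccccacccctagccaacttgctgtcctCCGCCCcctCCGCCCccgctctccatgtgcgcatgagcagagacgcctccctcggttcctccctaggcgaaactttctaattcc
The windows lie at chr15:102231936-102232185 (minus strand), chr12:119238277-119238526 (minus), chr2:180225860-180226109 (minus) and chr12:31265043-31265292 (plus). The loci of the deposited files reach further upstream for Itgb8 (to 119238802, so that the window lies inside the locus) and for Lamb1 (from 31265234, within the window). The Lama5 window held 4 GC boxes and the Lamb1 window held 2 GC boxes and 1 CCAAT box. A single CCAAT box was found for Itgb8, and none of the searched motifs for Itgb7. A GC box occurred in 9 of the 26 windows and in 32.7% of 32851 promoters of the same length. For the CCAAT box the count was 4 windows against 33.8% of promoters, and for TATAAA it was 0 windows against 12.4%.

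**Figure D1:**
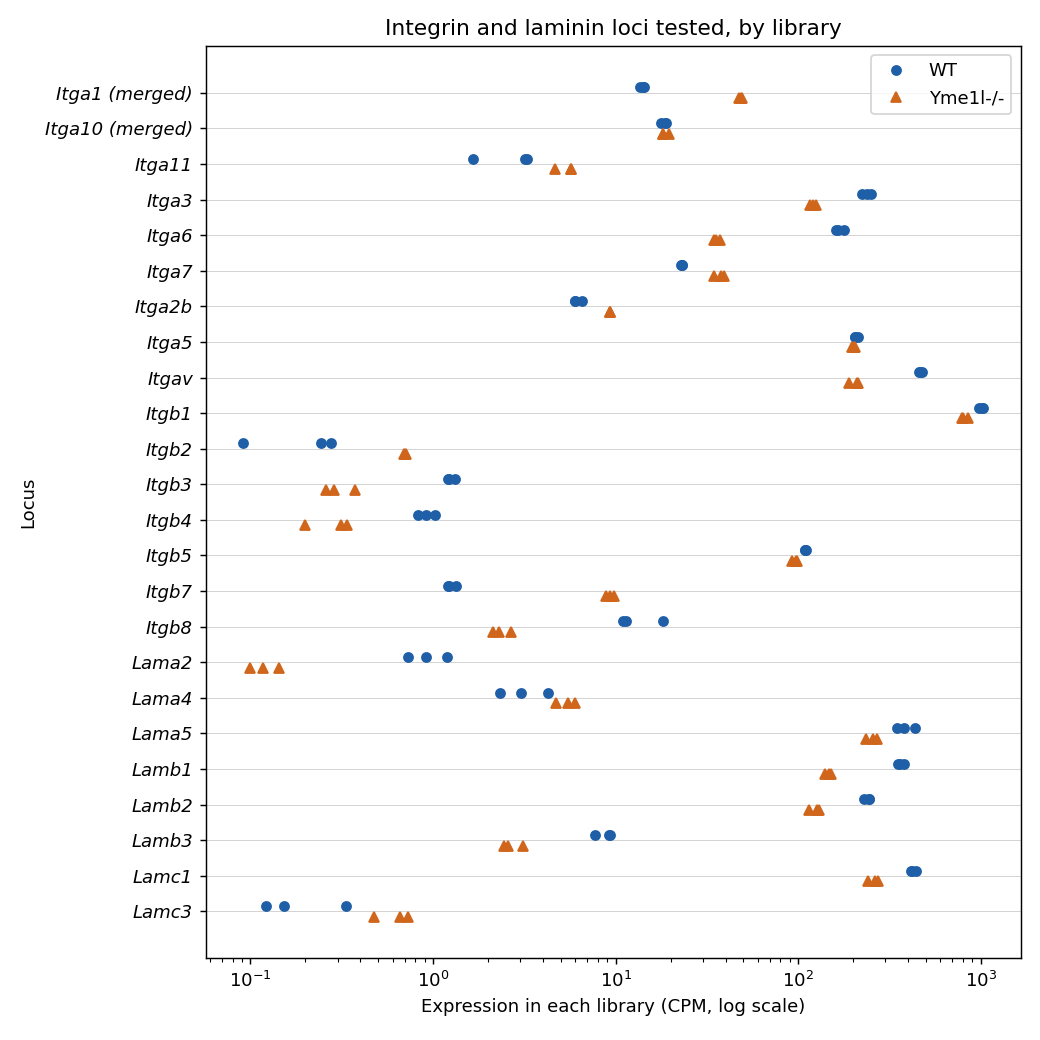
Expression of tested integrin and laminin loci in each library in CPM on a log axis, with circles for the 3 WT and triangles for the 3 Yme1l-/- libraries. The libraries of the genotypes overlap at the merged locus of Itga10 and at no other locus drawn.

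Libraries of the genotypes did not overlap at 24 of the 25 tested members, and at 71.9% of all loci tested. Among collagen-binding alpha subunits, the locus of Itga1 rose and that of Itga10 did not pass the test. The Itga1 locus (chr13:114953096-115101964) was measured at 14.3, 13.6 and 14.1 CPM in WT and at 47.4, 49.2 and 48.3 CPM in Yme1l-/- libraries. Every Yme1l-/- library was above every WT library, with a log2 fold change of 1.79 ± 0.05 (SE, edgeR adjusted p = 2.83e-10). Fragments of Pelo, a gene that lies within the span of Itga1 on the same strand, are counted in this locus and cannot be separated from it. The Itga10 locus likewise holds fragments of more than 1 gene, and it gave 18.8, 18.7 and 17.6 CPM in WT and 19.6, 18.2 and 18.1 CPM in Yme1l-/- libraries. These values overlapped (0.02 ± 0.07 on the log2 scale, adjusted p = 0.817).

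Itga11, which encodes a collagen receptor subunit of mesenchymal cells, rose from a low level. It was at 1.66, 3.18 and 3.28 CPM in WT and at 4.66, 5.71 and 5.73 CPM in Yme1l-/- libraries (log2 fold change 0.99 ± 0.22, adjusted p = 0.00229). Itga2 had 7, 10 and 11 counts in WT and 3, 2 and 2 counts in Yme1l-/- libraries, and it did not pass the filter. Without the filter it was called lower (-2.39 on the log2 scale, adjusted p = 0.00148).

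The laminin-binding alpha subunits moved in different directions. On the log2 scale Itga6 fell by the largest step among the abundant members. It was at 164, 179 and 161 CPM in WT and at 34.5, 37.4 and 35.7 CPM in Yme1l-/- libraries. The genotypes were far apart relative to the spread of the cultures, 168 ± 9.75 against 35.9 ± 1.46 CPM, and the log2 fold change was -2.23 ± 0.06 (adjusted p = 9.8e-11). Itga3, whose product pairs with the beta1 subunit, fell from 251, 224 and 238 CPM to 125, 121 and 116 CPM. Its libraries did not overlap either (-0.98 ± 0.05, adjusted p = 2.34e-08). In contrast, Itga7, best known as the laminin receptor of muscle, rose from 22.7, 23.1 and 23.1 CPM to 37.9, 34.5 and 39.4 CPM (0.70 ± 0.06, adjusted p = 1.59e-06). The loci of chromosome 10, which carries Itga7, had a median of 0.30, and without chromosome medians the value was 0.40 (adjusted p = 0.000169). Skeletal muscle markers summed to 0.429 to 0.604 CPM in WT and to 2.23 to 3.32 CPM in Yme1l-/- libraries, a rise carried by Des, while Myog was at 0 in all libraries. Smooth muscle markers summed to 592 to 658 CPM and 1022 to 1262 CPM, and of the 5 markers Acta2 (228 to 699 CPM) and Tagln (288 to 355 CPM) rose, Smtn fell (104 to 67.2 CPM) and Cnn1 and Myh11 were not called. The part of either in the rise of Itga7 was not tested.

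Of the RGD-binding alpha subunits, Itgav fell, Itga2b rose and Itga5 was not called. Itgav, the subunit shared by the vitronectin receptors and by integrins that activate TGF-beta, was at 466, 474 and 460.2 CPM in WT and at 191, 213 and 209 CPM in Yme1l-/- libraries. Each Yme1l-/- library was below each WT library (-1.19 ± 0.05, adjusted p = 3.6e-09). Itga5, the alpha subunit of the classical fibronectin receptor, gave 205, 212 and 205 CPM against 203, 204 and 196 CPM. Although these values did not overlap, the difference of -0.04 ± 0.04 did not pass the test (adjusted p = 0.354). Fold changes differed by chromosome, and Itga5 lies on chromosome 15, where the median of all loci was 0.59. With the median of each chromosome removed, Itga5 was called lower (-0.64 ± 0.04, adjusted p = 1.78e-07).

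Itga2b, the alpha subunit of the platelet fibrinogen receptor, rose slightly from 6.53, 6.02 and 5.97 CPM to 9.32 CPM in each Yme1l-/- library (0.59 ± 0.09, adjusted p = 0.000122). The value was 0.24 with chromosome medians removed (adjusted p = 0.0384). Itgb3, its partner in platelets, fell, as described below. Of the 5 platelet markers, Gp1ba and Gp6 were at 0 in all libraries, and the sum was 0.888 to 1.28 CPM in WT and 1.26 to 1.37 CPM in Yme1l-/- libraries. Itga8 had 7, 4 and 4 counts in WT and 0, 2 and 0 counts in Yme1l-/- libraries and was not tested.

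The remaining alpha subunits were near the limit of detection. Itga4, which recognises VCAM1 and fibronectin, had 4, 5 and 5 counts in WT and 0 in each Yme1l-/- library, and Itga9 had 1, 4 and 3 counts in WT and 0, 0 and 1 in Yme1l-/- libraries. The leukocyte subunit Itgam had 4, 4 and 2 counts in WT and 9, 14 and 29 in Yme1l-/- libraries. Itgae did not exceed 6 counts and Itgax 4 counts in a library, and Itgad and Itgal stayed at 3 counts or fewer in all. None of these passed the filter. When the filter was lifted, 1 of the 12 untested members was called higher (Itgam, adjusted p = 0.00279) and 3 were called lower (Itga2, Itga4 and Itga8). Over all 23035 loci of that fit, 43.6% were called, 21.3% higher and 22.4% lower.

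Among the 7 beta subunits tested, 2 rose (28.6%, near the 33.6% of all loci) and 5 fell (71.4%, against 34.1%), with a median log2 fold change of -0.31. Itgb1, the common partner of most alpha subunits in fibroblasts, was the most abundant member, at 1016, 1034 and 981 CPM in WT and at 855, 799 and 785 CPM in Yme1l-/- libraries. The decrease was modest but larger than the spread between cultures (-0.31 ± 0.05, adjusted p = 0.000248). Over all loci of chromosome 8, which carries Itgb1, the median was -0.32. After subtraction of chromosome medians Itgb1 was not called (0.00 on the log2 scale, adjusted p = 0.98). Itgb5, which pairs with the Itgav product, gave 109.5, 108.9 and 111 CPM in WT and 98.6, 96.7 and 92.8 CPM in Yme1l-/- libraries. This was a small decrease without overlap (-0.19 ± 0.04, adjusted p = 0.00224).

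Of the rarer beta partners of the Itgav product, Itgb8 and Itgb3 fell and Itgb6 was not tested. Itgb8, encoding a receptor subunit for latent TGF-beta, was at 11.0, 18.2 and 11.4 CPM in WT and at 2.14, 2.68 and 2.30 CPM in Yme1l-/- libraries. WT culture 2 stood above the other WT cultures, and all WT values exceeded all Yme1l-/- values (-2.51 ± 0.21, adjusted p = 3.84e-06). Itgb3 was at 1.21, 1.31 and 1.23 CPM in WT and at 0.286, 0.258 and 0.373 CPM in Yme1l-/- libraries (-2.01 ± 0.25, adjusted p = 2.81e-05). Itgb6, typical of epithelia, had 5, 3 and 13 counts in WT and 4, 6 and 6 counts in Yme1l-/- libraries, which overlapped. Itgb4 forms the laminin receptor of hemidesmosomes with the Itga6 product. It was near 1 CPM in WT (1.03, 0.825 and 0.919) and at 0.200, 0.337 and 0.314 CPM in Yme1l-/- libraries (-1.66 ± 0.29, adjusted p = 0.000322).

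Itgb7 showed the largest rise of any member. It was at 1.21, 1.34 and 1.23 CPM in WT and at 8.83, 9.84 and 9.30 CPM in Yme1l-/- libraries, a 7.39-fold difference (2.89 ± 0.12 on the log2 scale, adjusted p = 4.05e-09). The known partners of this lymphocyte subunit, Itga4 and Itgae, were those at 0 counts and at no more than 4 counts in Yme1l-/- libraries. Itgb7 lies on chromosome 15 like Itga5, and its log2 fold change was 2.30 with chromosome medians removed. Itgb2, the common beta subunit of leukocyte integrins, had 3, 9 and 8 counts in WT and 25, 35 and 36 counts in Yme1l-/- libraries (1.78 ± 0.36, adjusted p = 0.00106). Leukocyte markers summed to 1.80 to 2.02 CPM in WT and 4.09 to 4.36 CPM in Yme1l-/- libraries, most of it from Cd68, which rose. Among the defining leukocyte markers, Adgre1 and Cd3e were at 0 in all libraries, and Ptprc averaged 0.0203 and 0.0132 CPM. Lyz2 had 0, 2 and 0 counts in WT and 12, 8 and 11 in Yme1l-/- libraries, and Csf1r had 3, 2 and 5 against 11, 20 and 11, both without a test. Their part in the values of Itgb7, Itgb2 and Itgam was not tested.

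**Figure D2:**
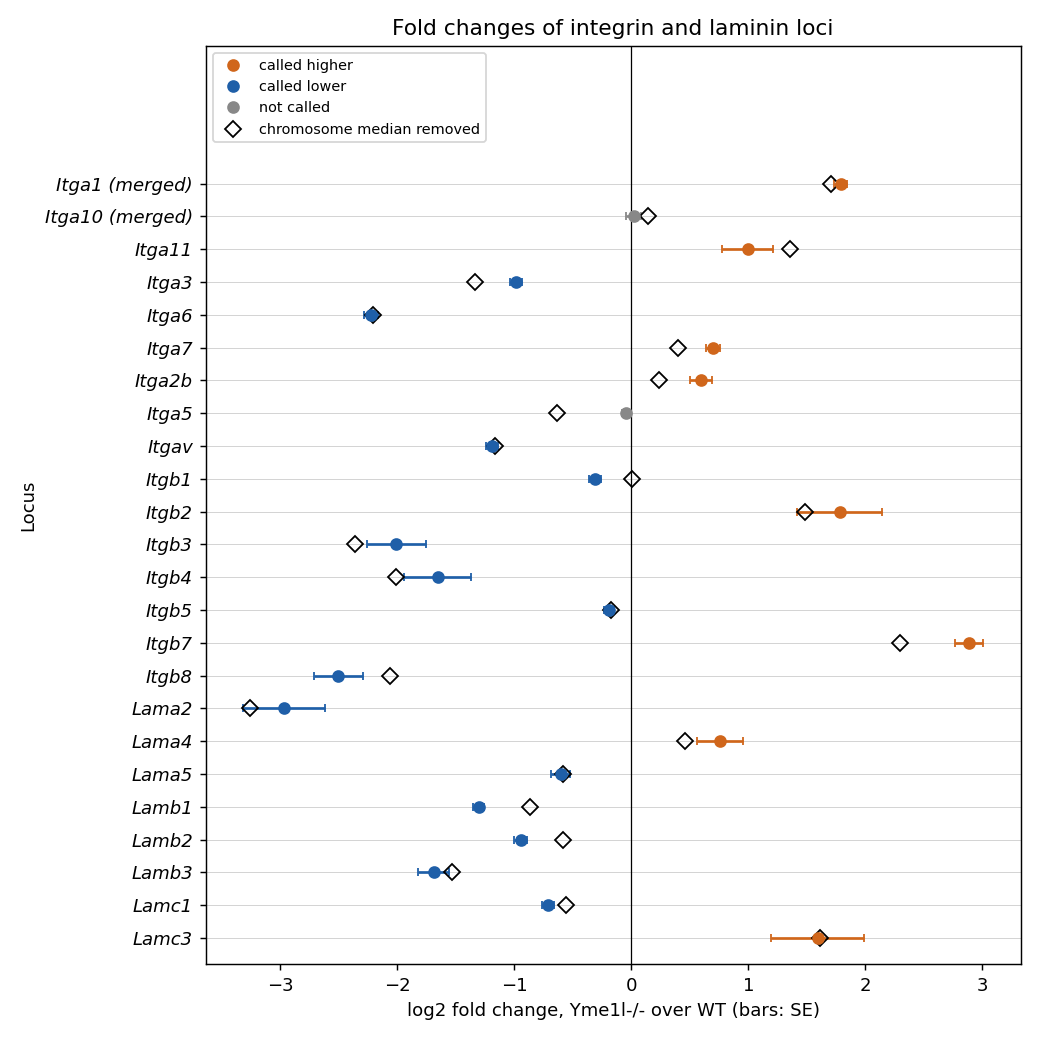
Log2 fold change (Yme1l-/- over WT) of tested loci with its standard error as bars, coloured by call, and the same value after removal of the median of its chromosome (open diamonds, no bars). Itgb7 has the highest value (2.89) and Lama2 the lowest (-2.97), while Itga5 and Itgb1 are the abundant loci whose call depends on the chromosome median.

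Of the 9 laminin chains tested, 7 fell (77.8%, against 34.1% of all loci) and 2 rose (22.2%, against 33.6%), with a median of -0.95. The alpha chain Lama5 dominated its class and fell, from 379, 347 and 438 CPM in WT to 236, 271 and 257 CPM in Yme1l-/- libraries. Its spread was the widest of the abundant chains, 388 ± 45.9 against 255 ± 17.8 CPM, without overlap (-0.61 ± 0.08, adjusted p = 0.000142). Lama2, the alpha chain of muscle and nerve basement membranes, had 24, 39 and 30 counts in WT and 5, 5 and 6 counts in Yme1l-/- libraries. This was the largest decrease among the 25 tested members on the log2 scale, at a low level (-2.97 ± 0.35, adjusted p = 1.76e-05). Schwann cell and neural crest markers summed to 10.9 to 13.0 CPM in WT and to 7.57 to 9.62 CPM in Yme1l-/- libraries, mostly from Erbb3, which fell (10.5 to 6.74 CPM), and their part was not tested. Lama4, an alpha chain of vessels and other mesenchymal tissue, rose from 2.33, 4.28 and 3.03 CPM to 4.69, 5.51 and 5.99 CPM (0.75 ± 0.20, adjusted p = 0.00549). The gap between its closest libraries was small, and with chromosome medians removed it was not called (0.46, adjusted p = 0.0641). Endothelial markers summed to 0.888 to 1.44 CPM in WT and to 1.67 to 2.00 CPM in Yme1l-/- libraries. Of these 7 markers Kdr rose (0.995 to 1.64 CPM), and Emcn, Tie1 and Cldn5 were at 0 in all libraries. Pecam1 had 0, 0 and 1 counts in WT and 3, 6 and 10 in Yme1l-/- libraries. Cdh5 had 0, 5 and 1 counts against 2, 0 and 0, and Tek had 6, 2 and 2 against 3, 1 and 2. The part of these markers in the rise of Lama4 was not tested. Lama3 had 3, 5 and 6 counts in WT and 2, 7 and 3 counts in Yme1l-/- libraries, and Lama1 did not exceed 3 counts in any library.

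All 3 laminin beta chains fell. Lamb1, the widely used beta chain, was at 361, 378 and 351 CPM in WT and at 148, 152 and 140.5 CPM in Yme1l-/- libraries. The libraries were well separated (-1.31 ± 0.05, adjusted p = 1.3e-09). Lamb2, the beta chain of synaptic, vascular and kidney basement membranes, fell from 244, 229.6 and 246 CPM to 115, 127 and 130.5 CPM (-0.95 ± 0.05, adjusted p = 5.35e-08). Both remained called lower with chromosome medians removed, at -0.87 for Lamb1 and -0.59 for Lamb2.

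Lamb3 encodes a chain that joins the Lama3 product in the laminin of epithelial basement membranes. It was at 9.37, 9.19 and 7.72 CPM in WT and at 2.57, 3.09 and 2.45 CPM in Yme1l-/- libraries (-1.69 ± 0.13, adjusted p = 6.09e-07). The libraries of the genotypes did not overlap. Of the 9 epithelial markers, 3 were tested and fell: Krt19 from 115 to 2.66 CPM, Krt18 from 31.9 to 0.0262 CPM and Epcam from 1.29 to 0.0848 CPM. The others were low and mixed in direction. Krt14 and Cldn4 had at most 8 and 4 counts in WT and at most 2 and 0 in Yme1l-/- libraries, and Cdh1 and Krt8 overlapped between genotypes. Tjp3 had 7, 3 and 6 counts in WT and 3, 18 and 22 in Yme1l-/- libraries, and Krt5 had 0 in WT and 1, 1 and 2 in Yme1l-/- libraries. Their part in the decrease of Lamb3, Itga6 and Itgb4 was not tested.

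Lamc1, the gamma chain of most laminins, fell from 417, 416 and 441 CPM to 239.8, 273 and 265 CPM, again without overlap (-0.71 ± 0.05, adjusted p = 4.59e-07). Lamc3 rose from a few counts, 11, 4 and 5 in WT, to 23, 24 and 37 in Yme1l-/- libraries (1.59 ± 0.40, adjusted p = 0.00424).

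To compare levels between genes, fragments were divided by the exon length of each gene and expressed as shares of the chain class, leaving out the merged Itga1 and Itga10 loci. By this measure Itgav, Itga5 and Itga3 were close to each other in WT cells, with 28.9% ± 0.334, 27.95% ± 0.496 and 27.7% ± 1.54 (SD) of the alpha subunits. In Yme1l-/- cells Itga5 took 44.2% ± 0.586, followed by Itga3 at 22.8% ± 0.819 and Itgav at 20.6% ± 1.12. The share of Itga6 went from 12.4% ± 0.665 to 4.31% ± 0.133, and that of Itga7 from 1.89% ± 0.0332 to 4.996% ± 0.402. The makeup of the beta subunits changed less, although the ranges of Itgb1, Itgb5 and Itgb7 were separate between genotypes. Itgb1 held 88.2% ± 0.311 in WT and 86.5% ± 0.381 in Yme1l-/- cells, and Itgb5 held 11.0% ± 0.370 and 11.7% ± 0.238. Itgb7 went from 0.162% ± 0.00717 to 1.47% ± 0.127. The authors' combined FPKM values, which are also scaled to length, placed Itgb1 (279 in WT, 227 in Yme1l-/-) above all other members in both genotypes. For WT they placed Itgav (86.4) well above Itga3 (50.5), Itga6 (48.6) and Itga5 (47.5). For Yme1l-/- cells they gave 46.2 for Itga5, 39.5 for Itgav, 25.6 for Itga3 and 10.9 for Itga6. The standing of alpha subunits to each other therefore differed between these scales, and the SDs cover the spread between libraries only.

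The laminin classes were each led by 1 or 2 chains. Lama5 made up 99.0% ± 0.380 of the alpha chains in WT and 97.97% ± 0.163 in Yme1l-/- cells, and Lamc1 made up 96.6% ± 0.395 and 97.0% ± 0.227 of the gamma chains. The beta chains were shared between Lamb2, with 50.9% ± 1.87 in WT and 57.3% ± 2.27 in Yme1l-/- cells, and Lamb1, with 47.4% ± 1.75 and 41.6% ± 2.21. Ranges of both chains were separate between genotypes. Shares within a class are tied to each other, so that a rise of one can follow from a fall of another.

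**Figure D3:**
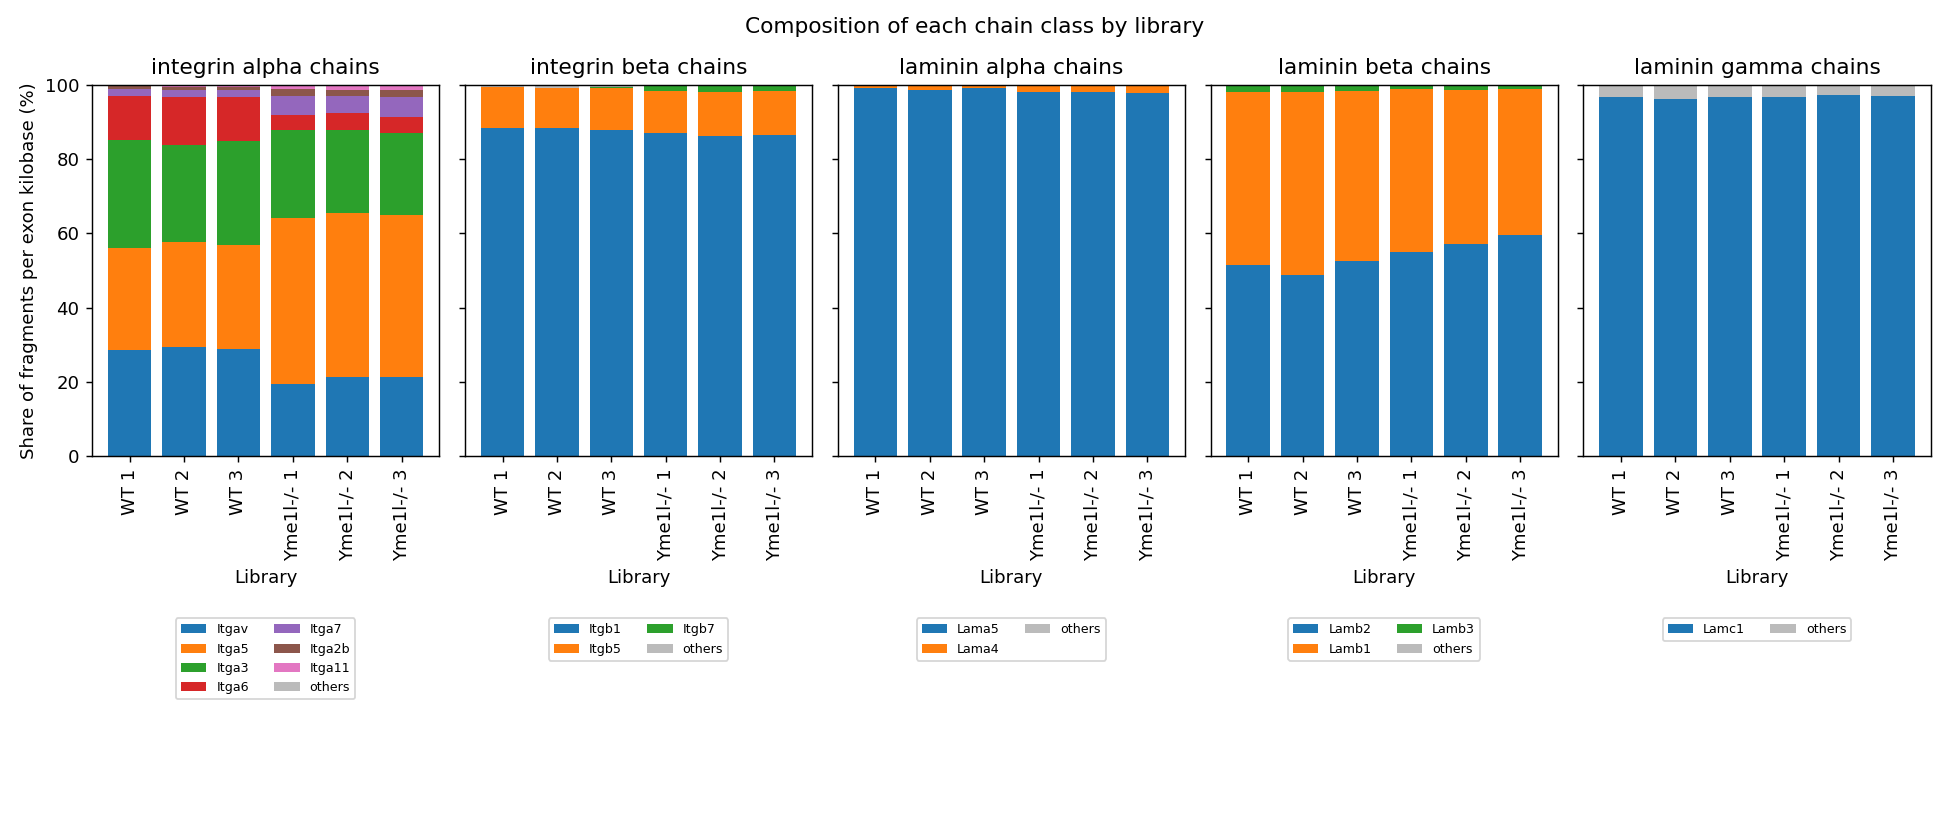
Share of each locus in the length-scaled fragments of its chain class (percent), with 1 bar per library and merged loci left out. Itga5 takes a larger part of the alpha subunits in the 3 Yme1l-/- libraries (44.2% on average, 27.95% in WT), while Itgb1, Lama5 and Lamc1 lead their classes in every library.

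Because receptors and laminins assemble from several chains, 6 ratios of length-scaled fragments were compared with an exact permutation test over the libraries, for which 0.1 is the smallest two-sided p that 3 against 3 allows. The ratio of alpha to beta integrin fragments, without the merged Itga1 and Itga10 loci, was 0.536 ± 0.00854 in WT and 0.401 ± 0.0176 in Yme1l-/- libraries. For Itga6 to Itgb1 it was 0.0752 ± 0.00275 and 0.02 ± 0.00155, and for Itgav to Itgb1 it was 0.176 ± 0.00233 and 0.0959 ± 0.00959. With these lengths Itga5 and Itgav were nearly equal in WT (ratio 0.967 ± 0.00649), whereas Itga5 exceeded Itgav in Yme1l-/- libraries (2.15 ± 0.146). In the authors' FPKM, Itga5 was below Itgav in WT (47.5 and 86.4) and above it in Yme1l-/- cells (46.2 and 39.5). The level of a ratio thus depends on the length scaling, which its SD does not cover. The ratio of laminin beta to gamma chains was 1.46 ± 0.0536 in WT and 1.10 ± 0.0321 in Yme1l-/- libraries. These 5 ratios did not overlap between genotypes and reached that smallest exact p of 0.1 (0.12 after adjustment over the 6 ratios). For laminin alpha to gamma chains the libraries overlapped (0.646 ± 0.0556 and 0.707 ± 0.00825, exact permutation p = 0.2). No ratio could pass 0.05 in this exact test.

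Genes that work with integrins and laminins were described in 6 lists, to be read against the 33.6% higher and 34.1% lower over all loci. The shares called higher among activators, focal adhesion genes, basement membrane partners and ligands were near that background. Inside the cell, integrins are switched on by talins and kindlins, which bind the tail of the beta subunit. Of 18 activators and tail-binding proteins, 17 were tested, of which 5 rose (29.4%) and 9 fell (52.9%, median -0.13). Apbb1ip (RIAM), the adaptor that brings talin to the membrane with RAP1, rose from 4.59 ± 0.547 to 40.2 ± 2.23 CPM (3.13 ± 0.09 on the log2 scale). The endocytic adaptor Dab2 rose (1.67 ± 0.06, or 1.08 with chromosome medians removed), and the actin-binding tensin Tns1 fell (-1.71 ± 0.09). Among 22 focal adhesion adaptors and kinases, 21 were tested, of which 8 rose (38.1%) and 11 fell (52.4%, median -0.13). Parvb, which joins ILK and PINCH proteins in a complex at adhesions, fell from 29.6 ± 1.78 to 3.25 ± 0.245 CPM (-3.18 ± 0.09). The PINCH gene Lims2 rose from 0.456 ± 0.102 to 3.72 ± 0.339 CPM (3.01 ± 0.20), and Ptk2b, a kinase related to FAK, fell (-2.57 ± 0.15). Of 10 hemidesmosome and tetraspanin partners, 9 were tested, of which 5 rose (55.6%) and 2 fell (22.2%, median 0.27). The largest rises were those of the tetraspanin Cd82 (1.69 ± 0.07), of Cd47 (0.71 ± 0.05) and of the locus of the cytolinker Plec (0.64 ± 0.07). That locus also holds Parp10, whose fragments cannot be separated from those of Plec. It was not called with chromosome medians removed (0.05, edgeR adjusted p = 0.535). With those medians removed, 5 focal adhesion genes and 3 hemidesmosome and tetraspanin genes were called higher.

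Outside the cell, 11 of 13 basement membrane partners were tested, of which 3 rose (27.3%) and 6 fell (54.5%, median -0.34). Nid2, a nidogen that bridges laminin and type IV collagen, rose from 40.8 ± 2.97 to 214 ± 4.47 CPM (2.39 ± 0.06). The type IV collagen chain Col4a6 fell from 7.75 ± 0.80 to 0.118 ± 0.0714 CPM (-5.93 ± 0.25), and Col15a1 was at 3 counts or fewer in each Yme1l-/- library, at least 16.6-fold lower. Of the 12 non-integrin laminin receptors and enzymes that glycosylate dystroglycan for laminin binding, all tested, 1 rose (8.33%) and 9 fell (75%, median -0.42). The one that rose was Bcam, a receptor for Lama5-containing laminins, from 1.96 ± 0.373 to 9.09 ± 0.583 CPM (2.21 ± 0.14). The glycosyltransferase gene Large2 fell by 1.88 ± 0.48 on the log2 scale. With upper-quartile scaling or with chromosome medians removed, 2 genes of this list were called higher. Of 19 integrin ligands other than laminins, 15 were tested, of which 4 rose (26.7%) and 11 fell (73.3%, median -0.95). Edil3, an RGD protein of the matrix, had 38, 68 and 36 counts in WT and 0 in all Yme1l-/- libraries, at least 16.8-fold lower. Spp1 (osteopontin) fell from 339 ± 69.5 to 55.4 ± 2.86 CPM (-2.61 ± 0.16), and Icam1, a ligand of leukocyte integrins, fell from a low level (-2.43 ± 0.44). Bounds were computed against 3 counts per library and cover counting error only.

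**Figure D4:**
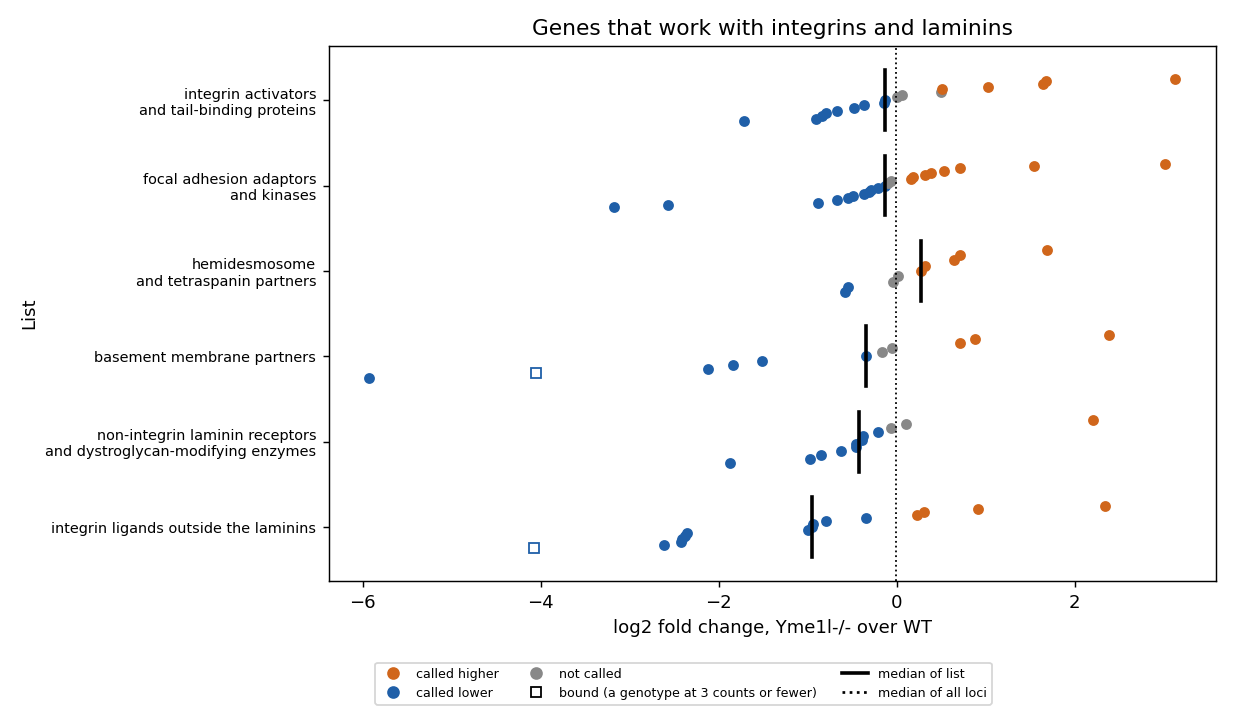
Log2 fold change (Yme1l-/- over WT) of every tested gene in 6 lists of integrin and laminin partners, coloured by call, with the list median as a bar, the median of all loci as a dotted line and lower bounds as open squares. The median is lowest for the integrin ligands (-0.95) and above 0 for the hemidesmosome and tetraspanin partners (0.27).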

How the data were processed

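RNA of 3 WT and 3 Yme1l-/- MEF cultures was sequenced. The authors mapped read pairs to mm10 (GRCm38) with HISAT2 2.0.4 and assembled transcripts with StringTie 1.3.3. The deposited table holds raw fragment counts per assembled locus, with overlapping genes merged (2 members). The treatment of multiply mapped fragments is not given in the sources used here. The deposited Cuffdiff 2.2.1 table holds FPKM as 1 combined value per genotype, and the authors' log2 ratios and p-values, which were not used. Locus coordinates came from it.

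In R 4.3.3, loci were filtered with filterByExpr (minimum count 10), scaled by TMM and compared with edgeR 4.0.16 (quasi-likelihood test, robust, two-sided, no covariates). P-values were Benjamini-Hochberg adjusted over all loci tested, and CPM used TMM-scaled library sizes. The standard error came from the fold change and its test. The script was tested on simulated data. The chromosome-median offset left out 65 tested loci, 45 of them without a single position and the others outside the autosomes and X. Exon lengths came from GENCODE on GRCm38.

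Library values were given for members called with at least 2-fold change or with at least 10 CPM in a genotype, and additionally for Itga11, Itga2b and Lama4 after their values were seen. Of each partner list the 3 called genes with the largest change were named. Values of some single genes are not reported here. The level of 100 CPM was chosen after values were seen. Shares and ratios of length-scaled fragments were not among the comparisons planned in advance. Members and lists were chosen with earlier results of these data known. Alternatives were RLE or upper-quartile scaling, DESeq2 1.42.0, 2 other filters, a replicate block, chromosome medians removed, and leaving out each culture.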

Additional observations from a re-analysis of the deposited data

How the results depend on the processing

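Over 13 alternatives for each of the 25 tested members, 315 values kept direction and call. Itga5 was 0.0154 (not called) under upper-quartile scaling and -0.64 (called) with chromosome medians removed. Itgb1 was 0.00165 (not called) and Lama4 0.46 (adjusted p = 0.0641) with those medians removed. Itga10, never called, lay between -0.0169 (without Yme1l-/- replicate 1) and 0.0411 (without Yme1l-/- replicate 3) over left-out cultures, and was -0.0114 without WT replicate 3. The causes were not tested. Members called higher numbered 6 to 9 and lower 13 to 18, the extremes coming from the 2 other filters, and Itgb2, Itgb4, Lama2 and Lamc3 were not tested when 10 counts were required in every sample. Leaving out a culture gave 8 higher and 15 to 16 lower members, with medians of -0.70 to -0.51. Upper-quartile scaling placed 55.1% of all calls higher, against 49.6%, and moved the median of all loci to 0.06. Genes called higher became 5 instead of 8 for focal adhesion and 3 instead of 5 for hemidesmosomes and tetraspanins with chromosome medians removed. For non-integrin laminin receptors they became 2 instead of 1 there, under upper-quartile scaling and without Yme1l-/- replicate 1 (1 to 2 over left-out cultures). Deviations of same-numbered cultures correlated at 0.198, -0.158 and 0.0482, so the numbers were not taken to pair them. A replicate block called 9794 loci instead of 9387, with 8 members higher and 15 lower, and changed no member's call. Depth limits the 12 untested members, of which 3 had 3 counts or fewer in every library.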
